A study of Mus musculus with 68 samples.

Results

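The comparison examined here set motor neurons that had been induced to express Pou3f1 against motor neurons that had been induced to express YFP, all sorted for the CD2 reporter. It held 8 of the 68 arrays of the series: the 4 arrays titled Pou3f1 (1 each in batches 1 and 2, and 2 in batch 4) and the 4 titled YFP (1 each in batches 1 and 2, and 2 in batch 3). Both groups came from C57/BL6 mouse embryonic stem cells that were grown as embryoid bodies, treated with retinoic acid and Smoothened agonist on day 2, and dissociated on day 5. The cells were then purified on magnetic columns by CD2, a surface marker carried by a transgene specific for motor neurons, and kept on matrigel for 30 h with doxycycline, which switched on the transgene of the line. The YFP lines received the same treatment and so carried the reporter and the induction as well. Only batches 1 and 2 held both groups, and batch 4 held 2 Pou3f1 arrays and no YFP array. Differences for batches 1 and 2 are therefore given beside the pooled ones. Each limma difference given within batches 1 and 2 comes from a batch-matched fit over all 68 arrays. That fit sets the Pou3f1 arrays of batches 1 and 2 against all YFP arrays, those of batch 3 included, with batch terms. Its values can therefore differ from the plain differences within the 2 batches. Nothing in the labels tells whether arrays of a group stem from different cultures or clones. The p-values rest on the spread between arrays of one group over all 31 groups of the series, and that spread may be technical.

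Pou3f1 (also called Oct6 or Scip) is a transcription factor of the POU family, which binds octamer-like DNA with a POU-specific domain and a homeodomain. It is expressed in some motor neuron pools, among them the phrenic neurons of the cervical spinal cord that drive the diaphragm. Motor neurons of one pool gather in a cluster, and type II cadherins, which bind like partners on neighbouring cells, are known to take part in that sorting. According to the series description, each induced line was set against YFP to look for phrenic genes.

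Some arrays stood apart within their groups. The mean over 14 Hox genes of paralogues 1 to 5, which mark position along the neural tube, was 9.21 and 9.09 in the Pou3f1 arrays of batches 1 and 2, and 10.58 and 10.66 in those of batch 4. It was 9.31, 9.29, 9.90 and 9.52 in the YFP arrays, and 10.84 in the H4 parental array, which shares batch 4 with 2 of the Pou3f1 arrays. Each group also fell into a pair of pairs by other genes, as was seen after the values were examined. In the Pou3f1 arrays of batch 1, of batch 2 and of batch 4 (numbers 1 and 2), the Y-linked gene Eif2s3y read 4.95, 9.57, 5.21 and 9.01, against 10.31, 10.12, 9.73 and 9.46 in the YFP arrays. The imprinted RNA gene Meg3 read 12.60, 9.85, 12.85 and 10.01 in the same Pou3f1 arrays, against 12.22, 12.51, 11.80 and 11.87 in the YFP arrays. The arrays of batch 1 and number 1 of batch 4 thus combined low Eif2s3y with high Meg3, and the other 2 combined high Eif2s3y with low Meg3. Between the 2 Pou3f1 arrays of batches 1 and 2, and likewise between the 2 of batch 4, 33 genes differed by more than 1 on the log2 scale in the same direction, and 0 did so in opposite directions. Of these, 31 lay on chromosome 12 (Meg3, Rian, DQ267102 and 28 microRNA genes) and 2 on chromosome Y (Eif2s3y and Uty). Among the YFP arrays 40 genes differed that much in the same direction between title numbers 1 and 2 in both pairs, and 3 in opposite directions. One of them was Grb10, an imprinted adaptor gene, at 11.27, 11.35, 11.85 and 11.89 in the Pou3f1 arrays, and at 11.70 (batch 1), 8.94 (batch 2), 12.46 and 8.58 (batch 3) in the YFP arrays. What the title numbers stand for is not given in the labels.

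Pou3f1 itself was measured first, as a check of the labels. It read 9.48, 9.51, 10.14 and 10.70 in the Pou3f1 arrays of batches 1, 2, 4 and 4, against 8.67, 8.41, 8.69 and 8.39 in the YFP arrays of batches 1, 2, 3 and 3. The groups did not overlap, and the difference was 0.92 ± 0.17 within batches 1 and 2 (SE of the limma fit, adjusted p = 0.000917, and 0.158 without the Pou3f1 array of batch 2). In batch 4 the H4 array read 9.14, below both Pou3f1 arrays. The sources do not state whether the probes lie within the transgene.

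Across the 19938 genes measured, 417 passed the pooled limma test at an adjusted p under 0.05 (2.09% of genes), of which 260 were higher (1.3%) and 157 lower (0.787%) in Pou3f1 cells. In the batch-matched fit, which takes Pou3f1 from batches 1 and 2 only but keeps all YFP arrays, 352 genes passed (1.77%). Of these 224 were higher (1.12%) and 128 lower (0.642%). Without batch terms the pooled fit called 525 genes, 234 higher and 291 lower. Because the arrays measured RNA of bulk cells, fewer cells of a type and less RNA per cell cannot be told apart.

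The differences in batch 1 were seen again in batch 2, which shares no array with it. Of the 75 genes at least 1 log2 unit higher in the Pou3f1 array of batch 1, 55 were at least 0.5 higher in batch 2 (73.3%, against 3.24% of all genes). Of the 102 genes at least 1 lower, 69 were at least 0.5 lower in batch 2 (67.6%, against 5.74% of all genes). There were 36 genes past 1 in both batches and 32 past -1. The 417 called genes were picked by a fit that holds the arrays of both batches, so their signs there are no separate check. Among them, 2 had opposite signs in the 2 batches: Dach1 (-0.01 in batch 1 and 0.39 in batch 2) and Gria4 (-0.00 and 0.64). Their batch 1 differences were close to 0, and both calls were lost without the YFP array of batch 2 (adjusted p = 0.173 and 0.268, limma), among others. The plot of one batch against the other shows Cdh9 far above the other genes that rose.

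**Figure D1:**
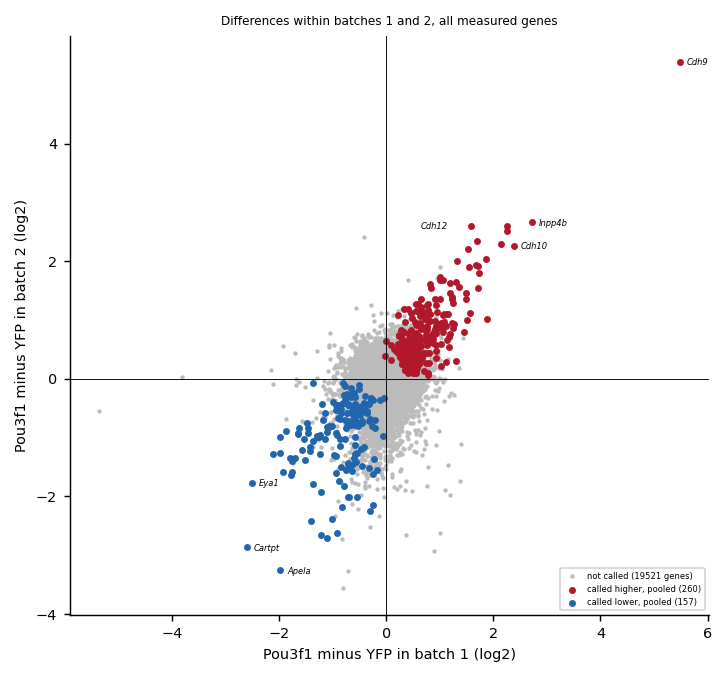
Pou3f1 minus YFP difference (log2) within batch 1 on the horizontal axis and within batch 2 on the vertical axis, 1 point per gene, with the 260 genes called higher in the pooled fit in red, the 157 called lower in blue and the other 19521 in grey. Cdh9 sits alone in the upper right at 5.48 and 5.39, and called genes lie along the diagonal in the upper right and lower left.

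The largest rise was that of Cdh9, a type II classical cadherin. Cdh9 read 11.33 and 11.12 in the Pou3f1 arrays of batches 1 and 2, and 7.09 and 7.17 in those of batch 4, against 5.84, 5.73, 5.84 and 5.95 in the YFP arrays. All 4 Pou3f1 arrays lay above all 4 YFP arrays, and the Pou3f1 arrays of batch 4 lay closer to YFP than to the other Pou3f1 arrays. In the batch-matched fit Cdh9 was 41.9-fold higher (5.39 ± 0.29, limma adjusted p = 1.18e-15), beside a plain mean of the 2 within-batch differences of 5.44. In the pooled fit it was 13.5-fold higher (3.76 ± 0.49, limma adjusted p = 4.83e-06, and 0.149 when the 8 arrays were fitted alone with no batch terms). The 37 other CD2 arrays of the series read 5.41 to 9.23. Arrays with low and with high Eif2s3y differed little in Cdh9, both between batches 1 and 2 and within batch 4.

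Cdh10, another type II cadherin, read 10.39, 10.26, 9.64 and 9.74 in the Pou3f1 arrays, against 8.01, 8.00, 8.07 and 8.32 in the YFP arrays. The groups were separated by more than 1 unit and the spread within each was smaller than that. The rise was 5.05-fold within batches 1 and 2 (2.34 ± 0.17, adjusted p = 5.27e-12) and 4.05-fold in the pooled fit (2.02 ± 0.16, adjusted p = 2.45e-10, limma). Cdh12, also of type II, read 12.35, 12.38, 10.22 and 10.43 in the Pou3f1 arrays, against 10.77, 9.78, 10.66 and 10.17 in the YFP arrays. Here the Pou3f1 arrays of batch 4 lay within the YFP range. The limma difference was 2.02 ± 0.36 within batches 1 and 2 (adjusted p = 0.000492, and 0.0728 without the Pou3f1 array of batch 2). The pooled difference of Cdh12 was 1.41 ± 0.34 (adjusted p = 0.0165), a call lost in turn without the Pou3f1 array of batch 1 (0.157) or batch 2 (0.179) and without the YFP array of batch 1 (0.0537) or batch 2 (0.178).

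The 3 cadherin genes that rose lie next to each other on mouse chromosome 15. In the RefSeq order the stretch from Cdh6 to Cdh18 holds 6 protein-coding genes: Cdh6, Cdh9, Cdh10, Cdh12, Acot10 and Cdh18. Cdh6, on one side, was lower within batches 1 and 2 by limma (-0.60 ± 0.13, adjusted p = 0.00814), but lost that call without the Pou3f1 array of batch 1 (0.0872) or batch 2 (0.241) or the YFP array of batch 2 (0.0664). In the pooled fit Cdh6 was at -0.36 (adjusted p = 0.151). On the other side Acot10, a thioesterase gene, was at 0.06 (adjusted p = 0.963) and Cdh18 at 0.17 ± 0.17 (adjusted p = 0.807) within batches 1 and 2 (limma). These 2 neighbours were named after their values were seen. The promoters of the 3 cadherins are shown because their genes rose together, and that of Pde4b, another gene that rose, because it was the only window of a named rise with a match to any motif searched. Each is 300 bases on the plus strand, from 250 before to 50 after the annotated start, taken from RefSeq (GRCm38.p6): Cdh9 at chr15:16728665-16728964, Cdh10 at chr15:18820079-18820378, Cdh12 at chr15:21111202-21111501 and one of the Pde4b starts at chr4:102589593-102589892. Capitals in the Pde4b window mark ATATTCAT, the reverse complement of ATGAATAT.
Cdh9: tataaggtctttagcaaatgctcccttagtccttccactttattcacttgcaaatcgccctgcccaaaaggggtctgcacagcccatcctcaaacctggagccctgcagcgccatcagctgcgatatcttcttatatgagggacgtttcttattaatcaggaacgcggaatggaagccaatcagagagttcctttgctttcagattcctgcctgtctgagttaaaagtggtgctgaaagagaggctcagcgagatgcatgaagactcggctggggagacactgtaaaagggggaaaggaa
Cdh10: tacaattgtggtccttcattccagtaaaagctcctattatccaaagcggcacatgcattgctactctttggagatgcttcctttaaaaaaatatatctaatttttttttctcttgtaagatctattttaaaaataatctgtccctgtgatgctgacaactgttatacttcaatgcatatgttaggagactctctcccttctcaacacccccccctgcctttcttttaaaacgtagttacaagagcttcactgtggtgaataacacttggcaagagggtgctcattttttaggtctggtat
Cdh12: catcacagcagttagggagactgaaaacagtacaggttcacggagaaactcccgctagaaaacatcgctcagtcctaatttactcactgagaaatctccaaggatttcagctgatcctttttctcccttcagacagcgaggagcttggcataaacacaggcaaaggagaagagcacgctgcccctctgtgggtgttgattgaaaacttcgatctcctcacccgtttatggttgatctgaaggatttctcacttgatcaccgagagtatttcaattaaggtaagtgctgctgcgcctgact
Pde4b: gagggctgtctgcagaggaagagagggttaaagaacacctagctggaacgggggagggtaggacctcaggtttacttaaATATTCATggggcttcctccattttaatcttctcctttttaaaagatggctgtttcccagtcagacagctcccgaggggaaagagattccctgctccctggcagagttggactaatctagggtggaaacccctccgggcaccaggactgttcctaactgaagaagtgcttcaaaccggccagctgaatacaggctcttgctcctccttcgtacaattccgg
Both strands were searched for the octamer ATGCAAAT, for ATGCNAAT, which contains it, and for ATGAATAT. Among the 17 windows of the 13 named rises that had one, the octamer was in 0, against 1.6% of the 19177 windows of measured genes, and ATGCNAAT was in 0, against 2.76%. ATGAATAT was in 1, against 0.746%. The GC content was 48.7% for Cdh9, 37.7% for Cdh10, 46.7% for Cdh12 and 51.3% for the Pde4b window. A match or its lack describes only these letters in these windows.

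**Figure D2:**
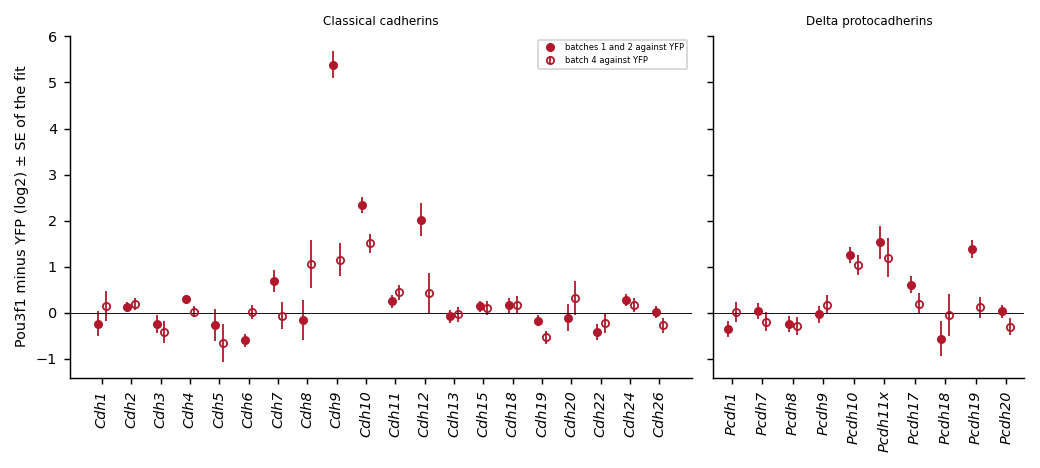
Pou3f1 minus YFP difference (log2) with the SE of the limma fit for each classical cadherin (left panel) and delta protocadherin (right panel), with filled points for the Pou3f1 arrays of batches 1 and 2 and open points for those of batch 4. Cdh9 (5.39), Cdh10 (2.34) and Cdh12 (2.02) stand above the other classical cadherins in batches 1 and 2, and the open point of Cdh9 lies at 1.16.

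The naming rule took the 15 largest rises by the mean of the batch 1 and batch 2 differences. In 12 of the 15 all Pou3f1 arrays lay above all YFP arrays, as did 4.78% of all genes; the exceptions were Cdh12, Tox and Gabra2, each through the Pou3f1 arrays of batch 4. Their batch-matched differences ran from 1.57 to 5.39 and the pooled ones from 1.28 to 3.76. These values and the separation of the groups share arrays with the rule. Inpp4b, a phosphoinositide phosphatase, read 9.00, 9.24, 8.81 and 8.98 in the Pou3f1 arrays, against 6.28, 6.57, 6.50 and 6.47 in the YFP arrays. It rose by 2.55 ± 0.21 within batches 1 and 2 (limma, adjusted p = 1.59e-10). The H4 parental array of batch 4 read 8.43 for Inpp4b, close to the Pou3f1 arrays of its batch. Cadps2, which primes dense-core vesicles for release, read 8.76, 9.09, 8.16 and 8.64 in the Pou3f1 arrays, against 6.50, 6.49, 6.78 and 6.82 in the YFP arrays. Cadps2 rose by 2.33 ± 0.31 (adjusted p = 8.97e-06, limma, batches 1 and 2), and H4 read 7.88.

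Lmo3, a LIM-only cofactor of transcription, read 10.90, 10.82, 9.06 and 8.94 in the Pou3f1 arrays, against 8.64, 8.30, 8.32 and 7.78 in the YFP arrays. It rose by 2.28 ± 0.38 within batches 1 and 2 (limma, adjusted p = 0.000217). Like Cdh9, Lmo3 was nearer to YFP in the batch 4 Pou3f1 arrays. Tmem207, a membrane protein gene, read 8.78, 8.79, 8.13 and 8.49 in the Pou3f1 arrays, against 6.65, 6.49, 6.67 and 6.36 in the YFP arrays. Mro read 9.38, 9.42, 9.16 and 9.55, against 7.51, 7.38, 7.30 and 7.43. Both genes were high in every Pou3f1 array, and rose by 2.10 ± 0.25 (Tmem207, adjusted p = 8.68e-07) and 1.89 ± 0.20 (Mro, 4.68e-08, limma, batches 1 and 2). C1ql4, a secreted C1q-like protein, rose by 1.60 ± 0.26 (adjusted p = 0.000134, limma) and read 9.26 to 10.11 in the Pou3f1 arrays, against 7.55 to 8.72 in the YFP arrays. Its highest values were those of batch 4.

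Flrt2, a leucine-rich repeat protein that binds Unc5 receptors and latrophilins, rose by 1.93 ± 0.20 within batches 1 and 2 (adjusted p = 5.73e-08, limma). Mast4, a kinase of the microtubule-associated family, read 10.85, 10.96, 10.26 and 10.40 in the Pou3f1 arrays, against 9.12, 9.17, 9.34 and 9.00 in the YFP arrays, a rise of 1.80 ± 0.13 (adjusted p = 5.53e-12, limma). Gabra2, the GABA-A receptor alpha 2 subunit, rose by 1.90 ± 0.28 (adjusted p = 3.69e-05, limma), and Tox, an HMG-box factor, by 1.94 ± 0.17 (adjusted p = 1.17e-09, limma). Pde4b, a cAMP phosphodiesterase, and Cacng5, a regulatory subunit of AMPA receptors, rose by 1.63 ± 0.28 and 1.57 ± 0.20 (adjusted p = 0.000345 and 4.35e-06, limma). For Pde4b the H4 array of batch 4 read 10.63, beside 10.91 and 11.05 in the Pou3f1 arrays of that batch. With the Pou3f1 arrays of batch 1 and of number 1 in batch 4 alone, 14 of the 15 kept their call in the pooled fit, and with the other 2 Pou3f1 arrays alone also 14; the exception was Cdh12 both times (adjusted p = 0.223 and 0.0918). These settings were chosen after seeing the data. The rule had picked the 15 genes by a fit that holds the same arrays, so kept calls are no separate check.

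**Figure D3:**
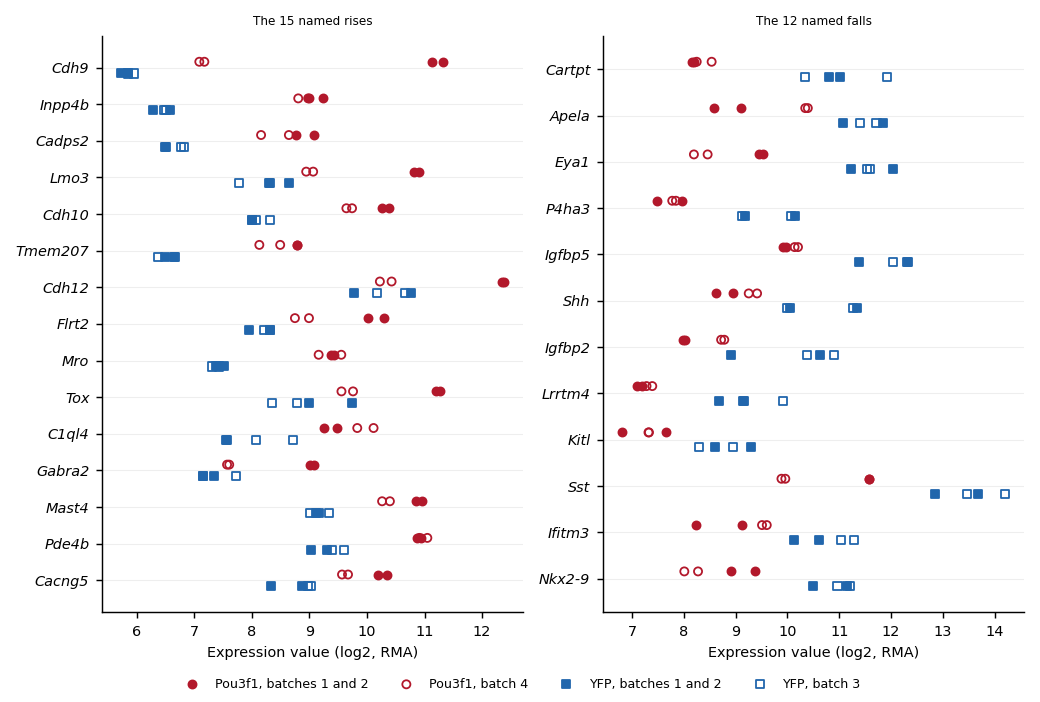
Expression value (log2, RMA) of the 15 named rises (left) and the 12 named falls (right) in each array, with Pou3f1 arrays as red circles above YFP arrays as blue squares, filled for batches 1 and 2 and open for batch 4 (Pou3f1) or batch 3 (YFP). The open circles of Cdh9, Cdh12, Lmo3 and Gabra2 lie nearer to the squares than the filled circles do, and in each fall all circles lie left of all squares.

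In all 12 genes that the rule took as falls, every Pou3f1 array lay below every YFP array, as did 3.49% of all genes. With the Pou3f1 arrays of batch 1 and of number 1 in batch 4 alone, 6 of the 12 kept their call in the pooled fit. With the other 2 Pou3f1 arrays alone 7 did. Those settings were chosen after seeing the data. The rule used these same arrays, so the separation and the kept calls partly follow from the choice of genes. Cartpt, which encodes the CART neuropeptide, read 8.20, 8.15, 8.54 and 8.25 in the Pou3f1 arrays, against 10.81, 11.01, 11.93 and 10.33 in the YFP arrays. It fell by 2.60 ± 0.39 within batches 1 and 2 (limma, adjusted p = 4.05e-05), while H4 of batch 4 read 8.56, so in that batch Pou3f1 and H4 arrays were alike. Its pooled call (adjusted p = 0.0173, limma) was lost without the Pou3f1 array of batch 1 (0.238) or batch 2 (0.179) or the YFP array of batch 1 (0.123) or batch 2 (0.142). Eya1, a cofactor of the Sine oculis family of homeodomain proteins, read 9.53, 9.45, 8.46 and 8.19 in the Pou3f1 arrays, against 12.04, 11.22, 11.60 and 11.53 in the YFP arrays, and 8.30 in H4. It fell by 2.00 ± 0.33 (adjusted p = 0.000217, limma, batches 1 and 2, and 0.0714 without batch terms), and its pooled call was lost without the batch 1 array of Pou3f1 (0.0947) or of YFP (0.115). For Eya1, too, the H4 array and the Pou3f1 arrays of batch 4 were alike.

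Sst, which encodes somatostatin, read 11.57, 11.57, 9.96 and 9.88 in the Pou3f1 arrays, against 13.69, 12.86, 14.21 and 13.47 in the YFP arrays, and 12.36 in H4. Here the batch 4 Pou3f1 arrays were also below H4, and Sst fell by 1.87 ± 0.32 within batches 1 and 2 (adjusted p = 0.000311, limma). Nkx2-9, a ventral homeobox gene, read 9.38, 8.92, 8.27 and 8.01 in the Pou3f1 arrays, against 11.14, 10.50, 11.22 and 10.97 in the YFP arrays, and fell by 1.72 ± 0.40 (adjusted p = 0.0141, limma, batches 1 and 2). That call was lost without the Pou3f1 array of batch 1 (0.124) or batch 2 (0.273) or the YFP array of batch 1 (0.0978), whereas its pooled fall of 2.05 ± 0.35 (adjusted p = 0.000334) was kept without any 1 array. Lrrtm4, a synaptic leucine-rich repeat protein, read 7.20, 7.10, 7.28 and 7.39 in the Pou3f1 arrays, against 9.13, 8.68, 9.92 and 9.16 in the YFP arrays. It fell by 1.82 ± 0.29 (adjusted p = 0.00011, limma, batches 1 and 2), with narrow values in the Pou3f1 arrays.

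Apela, a peptide ligand of the apelin receptor, fell by 2.61 ± 0.40 within batches 1 and 2 (adjusted p = 8.21e-05, limma, and 0.0817 without the Pou3f1 array of batch 2). Igfbp5 and Igfbp2, which bind insulin-like growth factors, fell by 1.92 ± 0.26 and 1.86 ± 0.32 (adjusted p = 1.16e-05 and 0.000317, limma), and the call of Igfbp2 was lost without the Pou3f1 array of batch 2 (0.142). Kitl, the ligand of the Kit receptor, fell by 1.62 ± 0.28 (adjusted p = 0.000447, limma); its pooled call (0.0213) was lost without the Pou3f1 array of batch 1 (0.239) or batch 2 (0.188) or the YFP array of batch 1 (0.197) or batch 2 (0.11). The last falls each lost their call without a batch 2 array. P4ha3, a collagen prolyl hydroxylase, fell by 1.85 ± 0.45 within batches 1 and 2 (adjusted p = 0.0181, limma, and 0.625 without the Pou3f1 array of batch 2 or 0.119 without the YFP array of batch 2). Ifitm3, an interferon-induced membrane protein, fell by 1.86 ± 0.44 (adjusted p = 0.0141, limma, and 0.686 or 0.0511 without the same arrays). Shh, the morphogen of the floor plate, read 8.94, 8.63, 9.25 and 9.41 in the Pou3f1 arrays, against 10.05, 11.34, 9.99 and 11.26 in the YFP arrays. It fell by 1.82 ± 0.38 (adjusted p = 0.00448, limma, and 0.418 without the Pou3f1 array or 0.0664 without the YFP array of batch 2).

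The 2 batch 4 Pou3f1 arrays were tied to YFP only through lines that were also run in other batches (the bridged fit), and 65 genes passed there (0.326%). The bridged estimates share the YFP arrays with the batch-matched ones, and the values of both are given side by side. Cdh9 was at 1.16 ± 0.35 (limma adjusted p = 0.243) in batch 4, against 5.39 in batches 1 and 2, and Cdh10 at 1.51 (4e-05), against 2.34. Mro was at 1.83 (2.05e-05), against 1.89, and Tmem207 at 1.97 (0.000239), against 2.10. Sst was at -2.49 (0.000239), against -1.87, and Cartpt at -0.20 (0.969), against -2.60 (limma). For 14 of the 15 named rises both batch 4 Pou3f1 arrays also lay above the H4 array of the same batch, as did 38.5% of all genes; the exception was Cdh12. For 11 of the 12 named falls both lay below it, as did 34.4% of all genes. The exception was Eya1, and Cartpt in number 1 of these arrays was nearly level with H4. The pooled calls behind the naming rule used the Pou3f1 and H4 arrays of batch 4, so these counts are no separate check.

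The effect differed between batch 4 and batches 1 and 2 for 14 genes by limma (0.0702%). For Cdh9 the difference in effect, batch 4 minus batches 1 and 2, was -4.23 (adjusted p = 2.93e-08). For Lhx3, which with Isl1 sets up motor neuron identity, the difference in effect was 1.39 (adjusted p = 0.0346). It read 7.93 and 7.88 in the Pou3f1 arrays of batches 1 and 2 and 10.02 and 10.42 in those of batch 4, against 7.69 to 7.86 in the YFP arrays and 8.95 in H4. Foxp1, a factor of limb motor neurons, read 11.62, 11.24, 10.84 and 10.80 in the Pou3f1 arrays, against 10.52, 10.24, 10.06 and 9.84 in the YFP arrays, with a difference in effect of -1.24 (adjusted p = 0.00767) and 11.14 in H4. In batches 1 and 2 Foxp1 rose by 1.01 ± 0.16 (adjusted p = 9.84e-05, limma). The difference in effect was -1.35 for Tox (adjusted p = 0.00767) and -1.26 for Pcdh19, a delta protocadherin (0.0346, limma). Pappa, a protease that cleaves IGF-binding proteins, read 9.95, 10.04, 8.40 and 8.05 in the Pou3f1 arrays, against 9.87, 10.00, 9.84 and 9.96 in the YFP arrays, a difference in effect of -1.49 (adjusted p = 0.0126, limma). The part of the Hox levels in these differences was not tested, and batch and culture cannot be told apart for batch 4.

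The cells sorted by the other reporter, CD14, gave a comparison that shares no array with CD2: 2 Pou3f1 and 4 YFP arrays, with 61 genes called (0.306%), 49 higher (0.246%) and 12 lower (0.0602%). All 15 named rises were above 0 there, as were 48.5% of all genes, and 10 of them were called. Cdh9 read 9.58 to 9.62 in the 2 Pou3f1 CD14 arrays, against 5.58 to 5.87 in the YFP CD14 arrays (3.73 ± 0.62, limma adjusted p = 0.000887). Tmem207 was at 2.73 (3.87e-08), Inpp4b at 2.04 (2e-05), Mro at 1.76 (1.6e-06) and Mast4 at 1.47 (1.6e-06). All 12 named falls were below 0 in CD14 cells, with values of -1.38 to -0.61, but 0 of them were called (limma, adjusted p of 0.0671 or more). Eif2s3y read 8.71 to 9.86 and Meg3 11.65 to 11.70 in the Pou3f1 CD14 arrays, above the low values of some Pou3f1 CD2 arrays. The part of the array differences in Eif2s3y and Meg3 in the CD2 results was not tested.

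**Figure D4:**
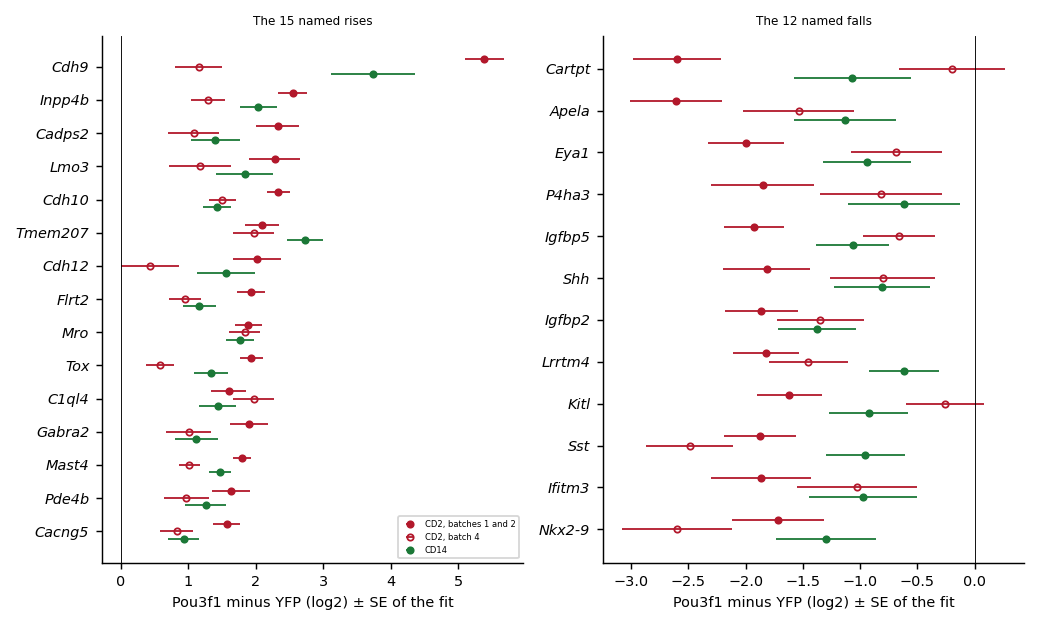
Pou3f1 minus YFP difference (log2) with the SE of the limma fit for the 15 named rises (left) and 12 named falls (right), in CD2 batches 1 and 2 (filled red), CD2 batch 4 (open red) and CD14 (green). All points of the rises lie right of 0 and all points of the falls left of 0; the batch 4 points of Cdh12 (0.43), Cartpt (-0.20) and Kitl (-0.26) lie closest to 0.

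Genes known from phrenic motor neurons were followed as a list of 12. The list was chosen with earlier results of these data known, and it includes Pou3f1, the gene induced in these lines. In the pooled fit 5 rose, namely Negr1 and Pcdh10 beside Pou3f1 itself and the cadherins Cdh9 and Cdh10, and 0 fell. Over all genes 1.3% rose and 0.787% fell in that fit. In the batch-matched fit 5 rose and 1, Cdh6, fell, beside 1.12% and 0.642% of all genes. The list median, with Pou3f1 included, was 0.40 in the pooled fit, beside 0.01 over all genes. Pcdh10, a delta protocadherin, read 11.67, 11.74, 11.05 and 11.30 in the Pou3f1 arrays, against 10.84, 10.20, 10.61 and 10.09 in the YFP arrays, and rose by 1.26 ± 0.18 (adjusted p = 3.13e-05, limma, batches 1 and 2). Negr1, a GPI-anchored adhesion molecule, read 9.93, 9.70, 9.47 and 9.57, against 9.18, 8.95, 9.10 and 9.01. Its rise of 0.77 ± 0.17 in the pooled fit (limma adjusted p = 0.00792) was lost without the Pou3f1 array of batch 1 (0.0674) or the YFP array of batch 2 (0.052). Alcam (0.07), Ptn (0.33), Tshz1 (0.43), Hoxa5 (0.38), Hoxc4 (-0.34) and Hoxc5 (-0.21) did not pass the pooled test. Hoxa5 read 9.64, 9.75, 12.14 and 12.39 in the Pou3f1 arrays, against 9.06, 9.40, 9.97 and 9.61 in the YFP arrays, with the high values in batch 4 and 12.53 in its H4 array.

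Of 17 genes shared by motor neurons in general 1 passed the pooled test and 0 the batch-matched one (limma), with list medians of 0.05 and 0.01. It was Mnx1, a homeodomain factor of motor neurons, which rose by 0.70 ± 0.14 (pooled limma adjusted p = 0.00215, and 0.051 batch-matched). The mean of the list was 11.30, 11.44, 11.57 and 11.65 in the Pou3f1 arrays, against 11.31, 11.28, 11.42 and 11.50 in the YFP arrays, with overlapping ranges. Single members could still differ, as Lhx3 did in the Pou3f1 arrays of batch 4. Of 13 genes of the lateral motor column, 2 rose (Lhx1 and Fign) and 1 fell, Pou3f2, a close relative of Pou3f1, in the pooled fit. In the batch-matched fit 2 rose (Fign and Foxp1) and 0 fell. Beside the counts of the lists in this paragraph, the pooled fit called 1.3% of all genes higher and 0.787% lower. The batch-matched fit called 1.12% and 0.642%. Lhx1, a LIM homeodomain factor, read 8.46, 8.42, 10.29 and 10.64 in the Pou3f1 arrays, against 7.78, 7.54, 8.32 and 7.86 in the YFP arrays. Its pooled difference of 1.24 ± 0.31 (limma adjusted p = 0.0191) was larger than the batch-matched one of 0.64 ± 0.31 (adjusted p = 0.418). The pooled call was lost without the YFP array of batch 1 (0.062) or batch 2 (0.101) or number 2 of the batch 4 Pou3f1 arrays (0.0688). Fign, a microtubule-severing ATPase, rose by 1.07 ± 0.20 (adjusted p = 0.000919, limma, batches 1 and 2, and 0.0635 without the Pou3f1 array of batch 1). Of 10 genes of the median, hypaxial and preganglionic columns 0 rose and 2 fell in either fit, Eya1 and Zeb2. Zeb2, a zinc finger repressor, was at -1.13 ± 0.28 (adjusted p = 0.0206, limma, batches 1 and 2), a call lost without the batch 1 array of Pou3f1 (0.263) or of YFP (0.25) and without the batch 2 array of Pou3f1 (0.178) or of YFP (0.0629).

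Of 9 other POU factors, 1 rose and 2 fell in the pooled fit, and 0 rose and 1 fell in the batch-matched fit, beside 1.3% and 0.787% of all genes in the pooled fit and 1.12% and 0.642% in the batch-matched one. Pou3f4, a close relative of Pou3f1, read 10.45, 10.97, 11.12 and 11.28 in the Pou3f1 arrays, against 11.29, 11.55, 11.79 and 11.66 in the YFP arrays. The groups only just missed each other, at 11.28 in a Pou3f1 array of batch 4 and 11.29 in the YFP array of batch 1. Over all genes 3.49% had every Pou3f1 array below every YFP array. Pou3f4 fell by 0.73 ± 0.11 (adjusted p = 8.8e-05, limma, batches 1 and 2), a call lost when the 4 arrays of batches 1 and 2 were fitted alone (0.118). Pou3f2 was at -0.43 ± 0.12 in the pooled fit (adjusted p = 0.0378) and at -0.42 in the batch-matched one (0.133, limma). Its pooled call was lost without any 1 of 7 arrays, with adjusted p of up to 0.248, without the YFP array of batch 2. Pou2f2 was at 0.82 ± 0.20 in the pooled fit (adjusted p = 0.0184) and at 0.86 in the batch-matched one (0.0534, limma). The pooled call was lost without the YFP array of batch 1 (0.114), the Pou3f1 array of batch 1 (0.0701) or batch 2 (0.105) or the YFP array number 2 of batch 3 (0.0558). Of 14 Hox genes of paralogues 1 to 5 and 23 of paralogues 6 to 13, 0 passed the pooled test (limma). Of the first, 1 fell in the batch-matched fit, Hoxb2 (-0.74 ± 0.17, adjusted p = 0.00876, limma), which was not refitted without single arrays.

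Adhesion genes were among those that rose. Of 88 genes in the 5 adhesion lists, 16 rose (18.2%) and 3 fell (3.41%) in the pooled fit, beside 1.3% and 0.787% of all genes. In the batch-matched fit 20 rose and 4 fell, beside 1.12% and 0.642% of all genes. The median of the 88 was 0.14, beside 0.01 over all genes. The lists had been drawn up with the cadherin results known. Of 20 classical cadherins 3 rose and 0 fell in the pooled fit (3 and 1 in the batch-matched fit), and of 10 delta protocadherins 3 rose (Pcdh10, Pcdh11x and Pcdh19) and 0 fell in either. Pcdh19 read 9.27, 9.29, 8.57 and 8.58 in the Pou3f1 arrays, against 7.91, 7.73, 7.72 and 8.09 in the YFP arrays, and rose by 1.38 ± 0.19 (adjusted p = 1.22e-05, limma, batches 1 and 2). Its pooled call (0.0102) was lost without the Pou3f1 array of batch 1 (0.176) or batch 2 (0.147) or the YFP array of batch 1 (0.102) or batch 2 (0.101). Pcdh11x was at 1.53 ± 0.35 (adjusted p = 0.0125, limma, batches 1 and 2, and 0.113 or 0.273 without the Pou3f1 array of batch 1 or batch 2), with 9.30 and 9.28 in the batch 4 Pou3f1 arrays inside the YFP range of 8.68 to 9.79. Ctnnd2, the brain-enriched delta catenin that binds cadherin tails, was at 0.51 ± 0.11 (adjusted p = 0.00464, limma), a call lost without the Pou3f1 array of batch 1 (0.111) or batch 2 (0.112). It was the 1 of 7 catenins and partners that rose.

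Of 23 leucine-rich repeat and teneurin genes, 6 rose and 1 fell in the pooled fit, and 8 rose and 1 fell in the batch-matched fit. Beside the counts in this paragraph, the pooled fit called 1.3% of all genes higher and 0.787% lower, and the batch-matched fit 1.12% and 0.642%. Tenm2, a teneurin that binds latrophilins across synapses, read 11.06, 11.16, 10.40 and 10.32 in the Pou3f1 arrays, against 9.91, 10.05, 10.08 and 9.98 in the YFP arrays. It rose by 1.10 ± 0.12 (adjusted p = 1.55e-07, limma, batches 1 and 2). Of 28 immunoglobulin adhesion genes 3 rose and 2 fell in the pooled fit, and 5 rose and 2 fell in the batch-matched fit. Cntn5, a contactin, read 7.53, 7.76, 7.03 and 6.93 in the Pou3f1 arrays, against 9.17, 8.60, 9.72 and 9.18 in the YFP arrays, and 7.42 in H4. Its fall of 1.22 ± 0.23 (adjusted p = 0.00124, limma, batches 1 and 2) was lost without the batch 1 array of Pou3f1 (0.0872) or of YFP (0.0737). Chl1, a relative of L1, read 10.25, 10.43, 8.69 and 8.64, against 11.49, 11.39, 11.53 and 10.97, with a pooled fall of 1.29 ± 0.27 (adjusted p = 0.00534) and -1.04 (0.0931) in the batch-matched limma fit.

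Of 66 axon guidance genes, 9 rose (13.6%) and 3 fell (4.55%) in the pooled fit, beside 1.3% and 0.787% of all genes. In the batch-matched fit 9 rose and 2 fell, beside 1.12% and 0.642% of all genes. Plxnc1, a semaphorin receptor, read 10.80, 10.89, 10.38 and 10.42 in the Pou3f1 arrays, against 9.73, 9.92, 9.86 and 10.25 in the YFP arrays, and rose by 1.06 ± 0.15 (adjusted p = 2.06e-05, limma, batches 1 and 2). Epha5, an ephrin receptor, read 9.64, 10.02, 9.94 and 10.21, against 8.34, 8.38, 8.28 and 8.19. It rose by 1.45 ± 0.23 (adjusted p = 0.000135, limma), although H4 of batch 4 read 9.80, within the range of the Pou3f1 arrays. Unc5d, a netrin receptor of the Unc5 family, rose by 1.09 ± 0.19 (adjusted p = 0.000434, limma, and 0.141 without the Pou3f1 array of batch 2). Ntn1, a midline attractant, and Slit1, a midline repellent, fell in the pooled fit by 1.15 ± 0.32 (adjusted p = 0.0444) and 1.10 ± 0.26 (0.0139, limma). Both calls were lost without the YFP array of batch 2 (0.348 and 0.178) or the Pou3f1 array of batch 2 (0.286 and 0.149). Ntn1 read 9.36, 9.26, 10.08 and 9.79 in the Pou3f1 arrays, against 9.66, 11.51, 10.42 and 11.57 in the YFP arrays, high in the YFP arrays of title number 2. Other arrays whose removal ended the call of Ntn1 were YFP number 2 of batch 3 (0.117), Pou3f1 number 2 of batch 4 (0.0788) and Pou3f1 of batch 1 (0.0573).

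Of 41 receptor genes for glutamate, GABA, glycine and acetylcholine 10 rose and 2 fell in the pooled fit, and 8 rose and 2 fell in the batch-matched fit. Over all genes, the pooled fit called 1.3% higher and 0.787% lower, and the batch-matched fit 1.12% and 0.642%. Grm4, a metabotropic glutamate receptor, read 9.77, 9.98, 9.88 and 9.79 in the Pou3f1 arrays, against 8.71, 9.18, 9.60 and 9.30 in the YFP arrays, and rose by 0.88 ± 0.14 (adjusted p = 0.000147, limma, batches 1 and 2). Chrm2, a muscarinic receptor, read 8.26, 8.16, 7.99 and 8.12, against 10.02, 9.55, 11.13 and 10.72, and fell by 1.52 ± 0.25 (adjusted p = 0.000244, limma, batches 1 and 2). Grin2a, an NMDA receptor subunit, fell by 1.41 ± 0.25 (adjusted p = 0.000447, limma), a call lost without the batch 1 array of Pou3f1 (0.0677) or of YFP (0.0511). Of 63 ion channel genes 3 rose (4.76%) and 1 fell (1.59%) in the pooled fit, and 2 and 1 in the batch-matched fit. Of 18 neurotransmitter genes 0 rose and 2 fell in the pooled fit (1 and 2 in the batch-matched fit), the falls being the catecholamine enzymes Th and Ddc. Th read 10.61, 11.81, 10.87 and 10.97 in the Pou3f1 arrays, against 12.60, 13.07, 13.28 and 12.88 in the YFP arrays, and 12.44 in H4. It fell by 1.66 ± 0.27 (adjusted p = 0.000152, limma, batches 1 and 2, and 0.0945 without the Pou3f1 array of batch 1). Of 24 neuropeptide genes 0 rose and 2 fell in either fit, Sst and Cartpt.

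Markers of other cells that the sort could hold were followed as well. Of 9 measured markers of the floor plate and the adjoining p3 domain, 4 were called lower in the pooled fit (Shh, Ntn1, Nkx2-2 and Nkx2-9) and 2 in the batch-matched fit (Shh and Nkx2-9), beside 0.787% and 0.642% of all genes. Batch-matched, Ntn1 was at -1.25 (adjusted p = 0.0879) and Nkx2-2 at -1.36 (0.0534, limma). In each fit 1 marker rose, Nkx6-2 (0.79, pooled limma adjusted p = 0.00359), a homeobox gene of ventral progenitors. The list mean was 8.65, 8.52, 8.74 and 8.67 in the Pou3f1 arrays, against 9.00, 9.96, 9.41 and 9.86 in the YFP arrays. The Pou3f1 arrays lay below the YFP arrays, with differences of -0.35 in batch 1 and -1.44 in batch 2. The Pou3f1 array of batch 2 was also needed for Shh (0.167 without it) and Nkx2-2 (0.116). With only the YFP arrays of batch 1 and number 1 of batch 3 as controls, a setting chosen after seeing the data, Shh was at -0.81 (adjusted p = 0.354), Ntn1 at -0.49 (0.64) and Nkx2-2 at -0.93 (0.256, limma), while Nkx2-9 kept its call. Without the YFP array of batch 2 alone, Shh (0.173) and Nkx2-2 (0.16) also lost their call.

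The 16 cell cycle genes gave 0 calls in either limma fit, with a list median of -0.58 in the pooled fit. Their mean was 9.03, 9.00, 10.26 and 10.27 in the Pou3f1 arrays, against 9.18, 10.24, 10.18 and 10.60 in the YFP arrays. The difference was -0.15 in batch 1 and -1.24 in batch 2, and among the YFP arrays that of batch 1 alone was near the Pou3f1 arrays of batches 1 and 2. The part of this level in the other differences was not tested. Of 16 markers of neural progenitors and radial glia 1 fell in the pooled fit and 0 in the batch-matched fit, where Slc1a3 was at -0.99 (adjusted p = 0.0734). It is a glial glutamate transporter, with a pooled value of -0.99 ± 0.24 (limma adjusted p = 0.0181, and 0.131 without the YFP array or 0.12 without the Pou3f1 array of batch 2). The mean of the 16 was 10.10 to 10.39 in the Pou3f1 arrays, against 10.10 to 10.59 in the YFP arrays. Of 7 serotonergic and visceral markers 1 fell in either fit, beside 0.787% of all genes in the pooled fit and 0.642% in the batch-matched one. It was Tbx20 (-1.50 ± 0.37, adjusted p = 0.0219, limma, batches 1 and 2), a call lost without the Pou3f1 array of batch 1 (0.176) or batch 2 (0.319) or the YFP array of batch 1 (0.114). Of 13 markers of mesoderm, endothelium and fibroblasts, Actc1 fell (-1.61, adjusted p = 0.0243) and Lum rose (0.53, 0.0394) in the pooled limma fit, and each lost its call without the YFP array of batch 1 (0.0872 and 0.271), among others. The markers of ventral interneurons (15), dorsal interneurons and sensory neurons (10), neural crest (9), oligodendrocytes and astrocytes (9), epithelium and endoderm (11) and pluripotent cells (12) gave 0 calls in the pooled limma fit.

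Some batch-matched calls printed above were lost when the fit changed. With the 4 arrays of batches 1 and 2 fitted alone, the limma adjusted p was 0.0528 for Pou3f1, 0.0611 for Pcdh10, 0.0682 for Pcdh11x, 0.204 for Cdh6, 0.347 for Ctnnd2 and 0.0636 for Cntn5. It was 0.0562 for both Grm4 and Grin2a, 0.0564 for P4ha3, 0.0752 for Ifitm3, 0.0772 for Shh and 0.108 for Igfbp2. With CD2 arrays only it was 0.0562 for Cdh6, 0.0694 for Ctnnd2, 0.0996 for Pcdh11x, 0.12 for P4ha3, 0.082 for Tbx20 and 0.15 for Zeb2. Without batch terms it was 0.0639 for Ctnnd2, 0.0908 for Pcdh11x, 0.0758 for Cntn5, 0.0525 for Tbx20 and 0.0665 for Zeb2. Of the pooled calls, CD2 arrays only left Cdh12 at 0.113, Cartpt at 0.0804, Kitl at 0.0804, Shh at 0.0911, Nkx2-2 at 0.0804, Lhx1 at 0.118, Negr1 at 0.0653 and Pcdh19 at 0.0717 (limma). With the 8 arrays alone, pooled calls of named rises were lost: Cdh12 (0.397), Gabra2 (0.261), Tox (0.175), Cdh9 (0.149), Lmo3 (0.133) and Flrt2 (0.0897, limma). So were those of the named falls Igfbp2 (0.0588) and Shh (0.0514). Other calls lost there included Pcdh11x (0.495), Fign (0.439), Mnx1 (0.225), Lhx1 (0.197) and Pou3f4 (0.184). Tenm2 was at 0.129, Grm4 at 0.125 and Chl1 at 0.0616.

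**Figure D5:**
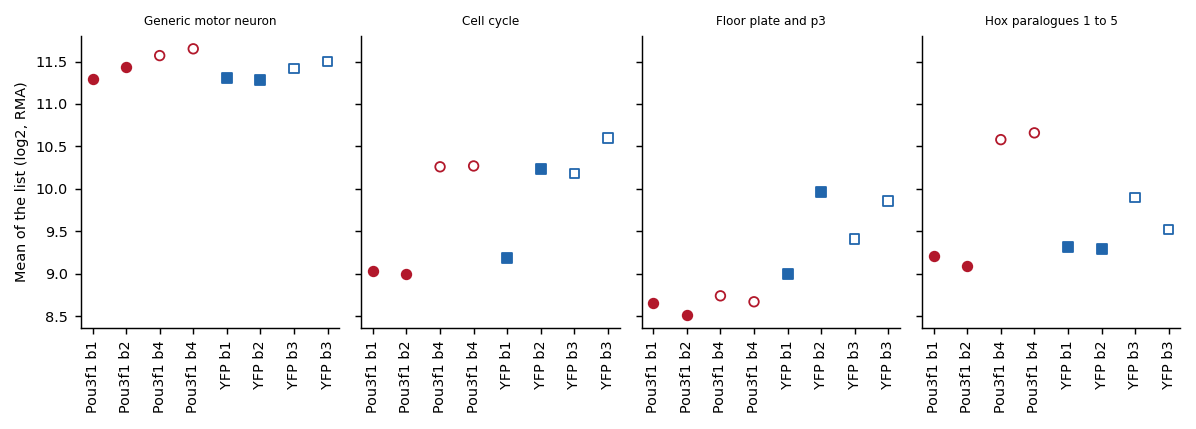
Mean expression value (log2, RMA) of 4 gene lists in each array, with b1 to b4 for the batches, Pou3f1 arrays as red circles left of YFP arrays as blue squares, and open symbols for batches 4 and 3. The generic motor neuron means lie between 11.28 and 11.65 in all 8 arrays, the Hox means are high in the Pou3f1 arrays of batch 4, and the floor plate and p3 means are lower in all Pou3f1 arrays.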

How the data were processed

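RNA of CD2-sorted motor neurons was measured on Affymetrix arrays. The authors deposited log2 values which the submitters' processing notes credit to RMA and oligo. Versions and annotation build are not stated, and RMA's quantile step can hide a shift of most genes. Of 35556 transcript clusters, 21789 had 1 symbol. The cluster with the highest mean was kept per gene, which left 19938 genes. The number of arrays limits the precision.

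All 68 arrays entered limma (version 3.58.1, R 4.3.3) with 1 term per group and 1 per batch. The batch-matched fit made the batch 4 Pou3f1 arrays a group of their own, with the batch 3 YFP arrays kept as controls. P-values are two-sided with Benjamini-Hochberg adjustment over all genes. An adjusted p under 0.05 counts as a call, a rise or a fall, and ± is the SE of the fit. The script was tested on simulated data.

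Named were the 15 largest rises and 12 largest falls called in the pooled fit with a difference of at least 0.5 in the same direction in batches 1 and 2, all phrenic genes, up to 4 called and 4 uncalled members per list, up to 5 genes opposite in those batches and 6 that differed in batch 4. Members and lists were chosen with earlier results of these data known. Title numbers shared by both groups did not pair the samples: deviations of same-numbered arrays correlated across genes at -0.285 to 0.285. Within groups arrays correlated at 0.978 to 0.995. Alternatives changed the batch terms, normalization, filter, arrays used and the replicate block.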

Additional observations from a re-analysis of the deposited data

Results flagged for a closer look

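For Actc1, the cardiac actin gene, the Pou3f1 array number 1 of batch 4 read 9.07, apart from the other 3 Pou3f1 arrays at 8.63 to 8.69. It was the 1 such case among 188 sets of 4 arrays examined, where chance gives about 1 in 20. Its pooled difference was -1.61 ± 0.41 (limma adjusted p = 0.0243).

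The effect of Pou3f1 in batch 4 differed from that in batches 1 and 2 by limma's test of the difference for 6 named genes: Cdh9 (-4.23), Pappa (-1.49), Lhx3 (1.39), Tox (-1.35), Pcdh19 (-1.26) and Foxp1 (-1.24). Batch 4 had no YFP array, so these differences rest on the lines that tie it to other batches. The part of the high Hox values of batch 4 in them was not tested.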

How the results depend on the processing

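Among the named genes tested under the alternatives, no call turned its direction. The pooled count of 417 became 134 with CD2 arrays only and 153 (61 higher and 92 lower) with the 8 arrays alone. Without any 1 array it ran from 185 to 665: 185 without Pou3f1 of batch 1, 212 without Pou3f1 of batch 2, 211 without YFP of batch 1, 250 without YFP of batch 2, and 665 without YFP number 1 of batch 3. With Pou3f1 of batch 1 and number 1 of batch 4 alone it was 108, with the other 2 Pou3f1 arrays 179, and with YFP of batch 2 and number 2 of batch 3 as controls 660. These 3 settings were chosen after seeing the data. The batch-matched count of 352 became 156 with CD2 arrays only, 104 with 4 arrays, and 97 to 432 without any 1 array (97 without Pou3f1 of batch 2, 134 without that of batch 1). The bridged count of 65 became 30 with CD2 arrays only, 954 without batch terms, and 18 to 96 without any 1 array (18 without Pou3f1 number 2 of batch 4). The count of 14 for batch 4 against batches 1 and 2 became 2 with CD2 arrays only, 470 without batch terms, and 3 to 10 without any 1 array (6 and 3 without Pou3f1 of batch 1 or 2, 3 without number 2 of batch 4). The CD14 count of 61 became 168 without batch terms, 132 without batch 4, and 16 to 58 without any 1 array (16 and 24 without either Pou3f1 array, 23 and 16 without either YFP array of batch 6). With the replicate block, which pairs arrays by a number only, the counts were 106 pooled, 131 batch-matched and 2 for the batch 4 difference. The block ended the batch-matched calls of Eya1 (adjusted p = 0.122), Pou3f4 (0.0547), Sst (0.0639), Nkx2-9 (0.249), Cdh6 (0.0537), Cntn5 (0.26), Ctnnd2 (0.132), Fign (0.0981), Grin2a (0.17), Tbx20 (0.179) and Zeb2 (0.413). Of 78 called genes examined in the pooled fit 39 kept their call without any 1 array, and of 63 in the batch-matched fit 29 did. The causes were not tested.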

Other observations

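Dlk1, a membrane protein gene of the same imprinted region of chromosome 12 as Meg3, was higher in all Pou3f1 arrays, whatever their Meg3 value. It read 11.25, 11.85, 12.80 and 13.46 in the Pou3f1 arrays of batches 1, 2, 4 and 4, against 9.77, 10.39, 10.22 and 10.41 in the YFP arrays of batches 1, 2, 3 and 3, and 11.68 in the H4 array of batch 4. The rise was 1.35 ± 0.22 within batches 1 and 2 (limma adjusted p = 0.000217, and 0.0543 without the Pou3f1 array of batch 2) and 1.57 ± 0.20 in the pooled fit (2.22e-06). In CD14 cells Dlk1 was at 1.22 (adjusted p = 0.0109). Rian, an RNA gene of the region, read 8.32, 6.30, 8.58 and 6.48 in the Pou3f1 arrays, against 8.37, 8.15, 7.77 and 8.33 in the YFP arrays. Its pattern over the Pou3f1 arrays was that of Meg3 and not that of Dlk1. Both genes were named after their values were seen.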
